A study of Mus musculus with 12 samples.

Results

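Antigen challenge of the sensitized mouse bladder was followed on 3 arrays, taken 1, 4 and 24 h after ovalbumin, and set against 3 saline arrays of the same times. These 6 arrays were chosen by their sample titles, out of 12 in the series. The ovalbumin mice were C57BL/6 animals sensitized with DNP-HSA and then given DNP-OVA into the bladder, and the labels state no sex for them. The saline mice were female C57BL/6 animals given saline, and nothing in the labels describes them as sensitized. The other 6 arrays come from female C57BL/6 mice given substance P (1 µM) or LPS (100 mg/ml as labelled) at the same times. Ages, the dose of antigen and the number of bladders behind an array are not stated. Each treatment and time therefore has 1 array and no replicate, so p-values measure only how far these arrays scatter. That scatter includes responses that differ between times, and some of it may be technical.

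In a sensitized animal, antibodies raised against an antigen sit on mast cells, and renewed contact with that antigen cross-links them and makes the cells release histamine, proteases, lipid mediators and cytokines. DNP is a hapten, a small group that antibodies recognise when it is coupled to a carrier protein such as serum albumin or ovalbumin. In the bladder such a challenge is used as a model of cystitis with mast cell activation, oedema and entry of leukocytes. The table used here identifies 1185 probes by codes alone (597 start with M, 351 with V and 237 with MA), without gene names. A search of the mouse RefSeq table (GRCm38.p6) by symbol, identifier and accession matched 0 of them. A further 16 codes equal a synonym of some gene, but a short code can coincide with an old gene alias and nothing in the files ties it to that gene, so these were not used. Mast cell, cytokine, urothelial and muscle genes could therefore not be read, nor the labelled tissue checked against its markers, and probes are given by code. As whole bladder RNA was measured, fewer cells of a type and less RNA per cell cannot be told apart for any probe.

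The deposited values are linear intensities that still hold a high base level. On the ovalbumin arrays the 90th percentile was 1.32 to 1.59 times the 10th, on saline 1 h and 4 h it was 2.00 and 2.51 times, and on saline 24 h 1.43 times. LPS 4 h (1.36 times) and LPS 24 h (1.55 times) had a range as narrow as that of the ovalbumin arrays. The arrays were quantile-normalized together, values under a floor at the 10th percentile (15.54 on the log2 scale) were raised to it, and values below are log2 of the normalized intensity unless the deposited scale is named. Ovalbumin carries lot 1 in the labels, while lot 2 is given for substance P 24 h and for the first saline arrays (1 h and 4 h), and no lot is given for saline 24 h. The antigen, the sensitization before it and the array lot cannot be told apart.

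The saline 24 h array stood apart from the other saline arrays and lay nearer to the ovalbumin arrays, although it is labelled saline. No lot is given for it, and the part of the lot in this likeness was not tested. Whether the label is right was not tested, so a ratio at 24 h is one against the array labelled saline 24 h, and the fits are given with and without it. Earlier results of these data had shown this array apart, so leaving it out was not a choice independent of the data. It had 34 probes at least 2-fold from saline 1 h (2.94% of those compared) and 33 from saline 4 h (2.83%). Against ovalbumin 1 h it had 2 such probes (0.173%), against ovalbumin 4 h 0 (0%) and against ovalbumin 24 h 9 (0.774%). Across the tested probes its Pearson correlation with the 3 ovalbumin arrays was 0.896 to 0.955, with saline 1 h and 4 h 0.835 to 0.846, and with the substance P and LPS arrays 0.764 to 0.850. The 3 arrays labelled lot 2 differed among themselves in 2 to 8 probes, and the ovalbumin arrays differed from these in 23 to 46. All correlations between arrays run over probes, and probes are no substitute for replicate samples.

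One hour after challenge, 10 probes stood at least 2-fold above saline and 13 below it, 2.00% of the 1152 that exceeded the floor in either array. At 4 h there were 17 above and 15 below (2.80% of 1141). For scale, saline 4 h against saline 1 h had 8 probes that far apart (0.695%). A count from 1 array against 1 array has no replicate check, and no p-value is attached to it. These counts depend strongly on the processing. After normexp background correction they were 201 above and 208 below at 1 h, and 168 above and 158 below at 4 h. Against the mean of all 3 saline arrays 0 probes were above and 6 below at 1 h, and 3 above and 4 below at 4 h.

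**Figure D1:**
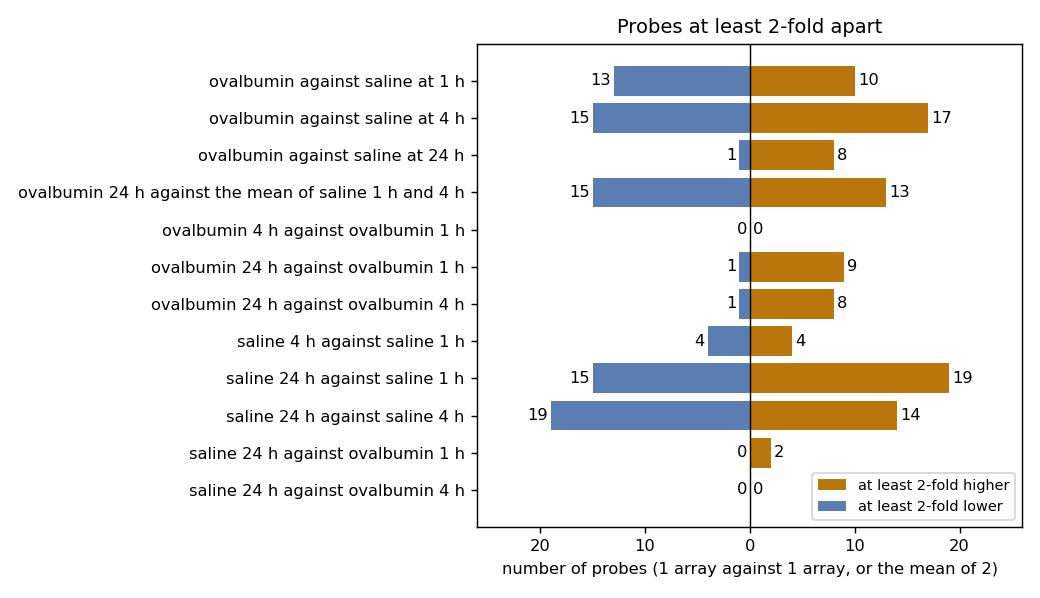
Number of probes at least 2-fold higher (right) or lower (left) in the first-named array of each comparison, after quantile normalization. Ovalbumin 1 h and 4 h have 23 and 32 such probes against their saline arrays and 0 against each other, while saline 24 h has 34 and 33 against the other saline arrays.

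Probe V128 had the lowest ratio at 1 h. It read 16.91, 16.99 and 16.97 on the ovalbumin arrays of 1, 4 and 24 h, and 19.13, 18.36 and 16.83 on the saline arrays. The ovalbumin values were flat and below saline 1 h and 4 h, and saline 24 h was the lowest of the 6. V128 was thus 4.64-fold lower than saline at 1 h, 2.58-fold lower at 4 h and 1.10-fold higher at 24 h. On the deposited scale it was 1.33 to 1.69 times the array median on the ovalbumin arrays, 6.68 and 6.25 times on saline 1 h and 4 h, and 1.40 times on saline 24 h.

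Probe V396 was next at 1 h, with 17.68, 17.68 and 18.78 after ovalbumin. The saline values were 19.89, 19.23 and 17.46. Here the ratio changed side: V396 was 4.61-fold lower than saline at 1 h, 2.92-fold lower at 4 h and 2.50-fold higher at 24 h. Against the mean of saline 1 h and 4 h the ovalbumin 24 h value was 1.71-fold lower, so the side at 24 h was set by the saline array chosen.

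Probe MA246 had the lowest ratio at 4 h. Its ovalbumin values were 16.15, 15.98 and 16.02, and its saline values 17.88, 18.11 and 15.97. Again the ovalbumin arrays and saline 24 h lay together, below saline 1 h and 4 h. The probe was 3.32-fold lower than saline at 1 h, 4.37-fold lower at 4 h and 1.04-fold higher at 24 h. On the substance P and LPS arrays MA246 ranged from 16.59 to 18.43, above all 3 ovalbumin arrays.

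Probe M779 followed at 4 h, at 16.49, 16.50 and 16.50 with ovalbumin and 18.15, 18.43 and 16.53 with saline. On the deposited scale it stood at 1.16 to 1.30 times the array median with ovalbumin and 1.24 times on saline 24 h, against 3.71 and 6.62 times on saline 1 h and 4 h. Among the 1185 probes M779 ranked 167th to 169th in brightness on the ovalbumin arrays and 160th on saline 24 h. It ranked 26th on saline 1 h, 20th on saline 4 h and 16th to 32nd on the substance P and LPS arrays. A rank within an array does not depend on the scaling. As quantile normalization sets each value by its rank, these ranks restate the log2 values and are no separate support.

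The highest ratios at 1 h were smaller. Probe M62 read 17.52, 17.10 and 16.89 with ovalbumin and 16.13, 16.24 and 17.21 with saline, which is 2.61-fold higher at 1 h, 1.81-fold higher at 4 h and 1.24-fold lower at 24 h. Probe M241 read 18.01, 18.09 and 17.72 with ovalbumin and 16.66, 17.39 and 17.72 with saline, 2.56-fold and 1.62-fold higher at 1 h and 4 h and equal at 24 h. In both, saline 24 h lay among the ovalbumin arrays.

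At 4 h the highest were M318 and V336. M318 read 18.66, 19.23 and 18.91 with ovalbumin and 18.20, 17.67 and 18.61 with saline, 1.38-fold, 2.94-fold and 1.23-fold higher at 1, 4 and 24 h. V336 read 18.56, 18.15 and 17.98 with ovalbumin and 17.64, 16.64 and 18.50 with saline. It was 1.89-fold and 2.86-fold higher at 1 h and 4 h and 1.43-fold lower at 24 h. Without scaling, the values of all these higher probes turned below saline, and the median log2 ratio of all probes was then -0.96 at 1 h and -0.97 at 4 h.

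The 1 h and 4 h ratios use no array in common and can be set side by side. Of the 10 probes at least 2-fold above saline at 1 h, 5 were also at least 2-fold above it at 4 h (50% of the 1 h list and 29.4% of the 4 h list). Of the 13 below saline at 1 h, 7 were at least 2-fold below it at 4 h (53.8% and 46.7%). All 10 and all 13 had the same sign at 4 h, while 56% of the 1181 tested probes had the same sign at both times. Across those probes the log2 ratios at 1 h and 4 h correlated at r = 0.552 (Spearman 0.362). For substance P the same figure was 0.137 and for LPS 0.292. The ovalbumin arrays share lot 1 and the saline arrays of these times lot 2, so the lot runs the same way at both times, and its part in the likeness was not tested.

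At 24 h against the saline array of the same time, 8 probes stood at least 2-fold higher and 1 lower (0.774% of 1163). None of the probes that were at least 2-fold apart at 1 h or 4 h was so in the same direction here. Of the 10 higher and 13 lower probes of 1 h, 2 and 6 kept their sign, and the log2 ratios at 24 h correlated with those of 1 h at -0.116 and with those of 4 h at -0.0443. With saline 4 h in place of saline 24 h, and still no array shared with the 1 h ratio, 10 of 10 and 12 of 13 kept their sign and r was 0.428. With saline 1 h in its place the ratios at 24 h correlated at 0.450 with those of 4 h, where 17 of 17 and 14 of 15 probes kept their sign.

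**Figure D2:**
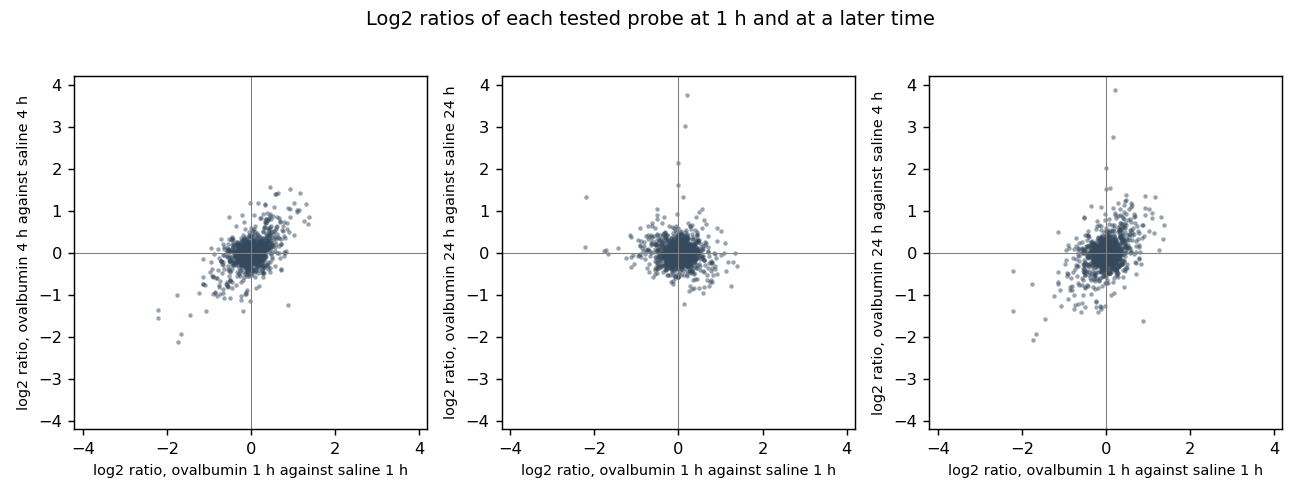
Log2 ratio of each of the 1181 tested probes at 1 h (horizontal) against that at 4 h (left), at 24 h against saline 24 h (centre) and at 24 h against saline 4 h (right). The points run along the diagonal in the left panel (r = 0.552) and the right panel (r = 0.428) but not in the centre (r = -0.116). The highest point in the centre is M134, at a log2 ratio of 3.74.

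Against the mean of saline 1 h and 4 h, ovalbumin 24 h had 13 probes at least 2-fold higher and 15 lower (2.40% of 1169). MA246 was 3.93-fold lower and M779 3.48-fold lower in this version. Of the 43 probes that were at least 2-fold from saline at 1 h or 4 h, saline 24 h was nearer to the mean of ovalbumin 1 h and 4 h than to the mean of saline 1 h and 4 h for 42, and ovalbumin 24 h for 38. Over all tested probes these shares were 64.3% and 59.4%. The 43 probes were picked by the arrays that also supply the means, so the 2 counts are a description.

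The scaling moved the split of these counts. Under median scaling the 1 h comparison held 1 probe above saline with 14 below. The 4 h comparison then held 2 above with 42 below, the 24 h comparison 2 above with 7 below, and ovalbumin 24 h against the earlier saline arrays 3 above with 45 below. V128 and V396 at 1 h and MA246 and M779 at 4 h stayed below saline under median scaling, without scaling and after normexp correction. M62, M241, M318 and V336 stayed above it under median scaling (0.65 to 0.83) and after normexp, but not without scaling.

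Averaged over the 3 times in an additive model of treatment and time (limma), 0 of 1181 probes differed between ovalbumin and saline (0%; lowest adjusted p = 0.0806), and 108 had an unadjusted p under 0.05. M665 and M583 reached that limma adjusted p of 0.0806, with differences of 0.91 ± 0.14 and 0.79 ± 0.11 (SE). These 2 were chosen after their values were seen.

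Without saline 24 h, 27 probes passed, 13 higher and 14 lower with ovalbumin (2.29%). The highest were M32 and M188. M32 read 17.25, 17.06 and 16.95 with ovalbumin, 16.08, 15.63 and 17.18 with saline, and 15.81 to 16.25 on the substance P and LPS arrays. Saline 24 h lay within the ovalbumin values, and the other 8 arrays lay below them after quantile normalization. On the deposited scale LPS 1 h (1.35 times the array median) lay just above ovalbumin 24 h (1.33 times). The difference without that array was 1.24 ± 0.13 (SE; limma adjusted p = 0.00271), or 2.36-fold, and with it 0.79 ± 0.28 (limma adjusted p = 0.445). M188 read 17.37, 17.25 and 16.94 with ovalbumin and 16.06, 16.10 and 17.17 with saline, and differed by 1.09 ± 0.17 without saline 24 h (2.13-fold, limma adjusted p = 0.0191) and by 0.74 ± 0.25 with it (limma adjusted p = 0.43).

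The lowest in that fit were M779 and V128, at -1.82 ± 0.16 (3.53-fold lower, limma adjusted p = 0.00263) and -1.81 ± 0.19 (3.50-fold lower, limma adjusted p = 0.00271). With saline 24 h they were at -1.21 ± 0.38 (limma adjusted p = 0.43) and -1.15 ± 0.42 (limma adjusted p = 0.448). With a further array left out in turn, M779 and V128 passed in 11 of 11 fits, M32 in 10 and M188 in 7. The count of 27 ran from 5 (without saline 4 h) to 45 (without LPS 24 h) in these fits. Removing ovalbumin 1 h left 7, ovalbumin 4 h 12 and saline 1 h 8. Under median scaling none of the 4 passed, with log2 differences of 0.73 for M32, 0.51 for M188, -2.00 for M779 and -2.10 for V128, and the count was 0.

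**Figure D3:**
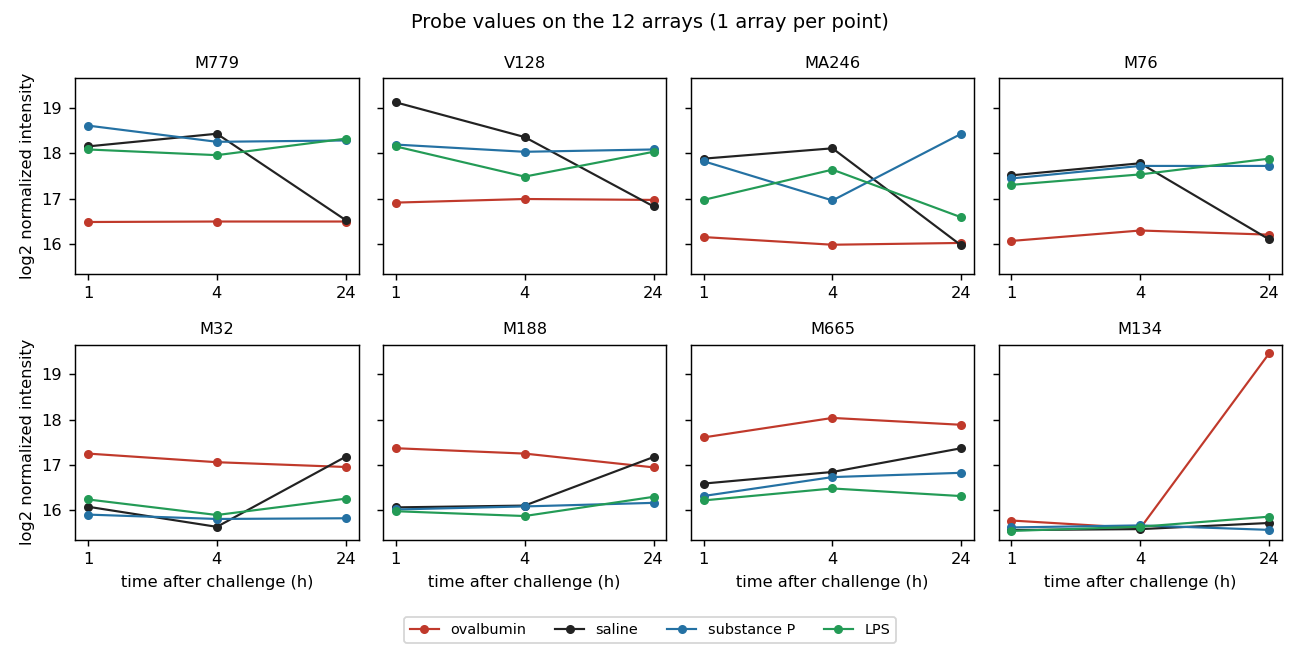
Log2 normalized intensity of 8 probes (vertical) at 1, 4 and 24 h (horizontal, not to scale) for the 4 treatments, 1 array per point. In M779, V128, MA246 and M76 the ovalbumin arrays and saline 24 h lie below the rest, in M32 and M188 above it, and M134 is high on ovalbumin 24 h alone.

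Setting ovalbumin against the mean of the other 3 treatments used 9 arrays, so that saline 24 h weighed less. Substance P and LPS are challenges themselves, so this contrast also takes in any change under them and is not one against untreated bladder. Averaged over times, 32 of 1181 probes differed in limma (2.71%), 29 higher and 3 lower with ovalbumin, and 212 had an unadjusted p under 0.05. By code series, the 32 were 13 M, 13 V and 6 MA codes. Probe M665 was the highest, at 17.61, 18.04 and 17.88 on the ovalbumin arrays, 16.59, 16.84 and 17.37 on saline, and 16.21 to 16.82 on the substance P and LPS arrays. After quantile normalization all 3 ovalbumin values lay above the other 9. On the deposited scale M665 was 1.91 to 3.07 times the array median with ovalbumin. There saline 4 h (2.13 times), substance P 4 h (2.37 times) and substance P 24 h (2.18 times) lay among the ovalbumin arrays. The difference was 1.21 ± 0.11 (SE; 2.32-fold, limma adjusted p = 0.00186), and M665 passed in 12 of 12 fits that left out 1 array, with a highest adjusted p of 0.0373. V336 was next at 1.2 ± 0.25 (limma adjusted p = 0.0491), and passed in 2 of these 12 fits.

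Of the 3 lower probes, M779 was at -1.58 ± 0.31 (limma adjusted p = 0.0448) and M369 at -0.98 ± 0.18 (limma adjusted p = 0.0395). M369 read 16.44, 16.54 and 16.35 with ovalbumin, 17.00, 17.37 and 16.76 with saline, and 17.23 to 18.20 on the other 6 arrays, so the ovalbumin values lay below all others. Against saline alone M369 was at -0.60 ± 0.22 (limma adjusted p = 0.456). M779 and M369 each passed in 2 of 12 fits with an array left out. Without saline 24 h, 101 probes passed (8.55%), 69 higher and 32 lower. There M779 was at -1.78 ± 0.12 (limma adjusted p = 0.000153), MA246 at -1.56 ± 0.32 (limma adjusted p = 0.0246), V336 at 1.34 ± 0.17 and M665 at 1.27 ± 0.08. Leaving out ovalbumin 24 h gave 28. Each of the other 10 arrays lowered the count of 32 by over 1.5 times when left out: ovalbumin 4 h to 2, ovalbumin 1 h to 3, substance P 24 h to 5, saline 1 h to 7, substance P 1 h and LPS 4 h to 8 each, LPS 1 h to 10, LPS 24 h to 16, and saline 4 h and substance P 4 h to 20 each. Median scaling gave 0 probes, with M665 at 0.46 and M779 at -1.82.

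All 3 ovalbumin arrays lay outside the other 9 for 55 probes (4.66%), above them for 36 and below for 19. Under median scaling they lay above for 14 probes and below for 9, and without scaling above for 0 and below for 21. After quantile normalization the same count was 8 for the saline arrays (0.677%), 5 for substance P (0.423%) and 15 for LPS (1.27%). Only the ovalbumin arrays all carry the same lot label, and the saline count includes saline 24 h. The part of the lot in these counts was not tested. Without saline 24 h the ovalbumin count was 133 (11.3%), 86 above and 47 below, that of substance P was 6 (0.508%) and that of LPS 19 (1.61%). The 2 saline arrays left lay outside the others for 32 probes (2.71%), which is not the same measure as for 3 arrays.

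**Figure D4:**
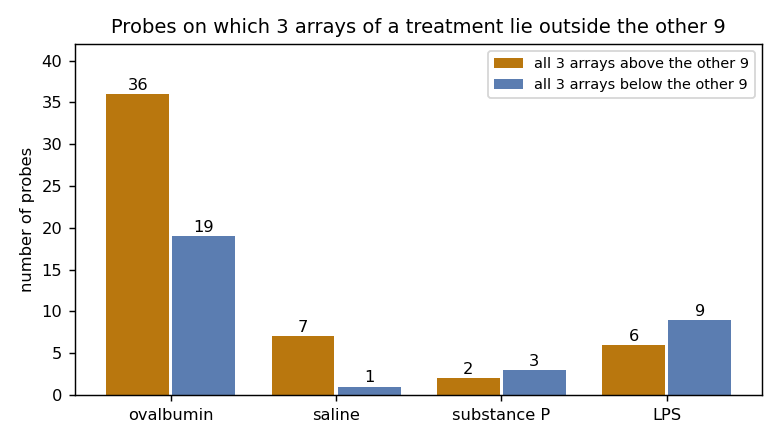
Number of tested probes (vertical) on which all 3 arrays of a treatment lie above or below the other 9 arrays. Ovalbumin has 36 and 19 such probes, and the other treatments have 1 to 9 in each direction. Only the ovalbumin arrays all carry the same lot label.

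Probe M583 had the widest gap above the others. It read 16.70, 16.83 and 16.88 with ovalbumin, 15.78, 15.98 and 16.29 with saline, and at most 15.89 elsewhere, so the gap opened above saline 24 h. M774 read 17.46, 17.33 and 17.37 with ovalbumin and up to 17.09 on the other 9 arrays, a value again from saline 24 h. On the deposited scale M774 was 1.49 to 2.02 times the array median with ovalbumin and 2.18 times on substance P 1 h, so its gap was lost. M583 kept its gap there, at 1.29 to 1.53 times the median with ovalbumin and at most 1.15 times elsewhere. Among those below the others, M205 read 15.76, 15.58 and 15.69 with ovalbumin and 15.95 to 17.26 elsewhere. For M76 the ovalbumin arrays read 16.07, 16.30 and 16.21 and saline 24 h 16.10, while the other 8 arrays read 17.31 to 17.88. M76 therefore counts as outside only without saline 24 h.

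To ask about single times, each ovalbumin array was given its own term and the spread was taken from the 9 other arrays, which assumes that the lone ovalbumin array varies like them. In this fit, 0 probes passed at 1 h (0%; lowest limma adjusted p = 0.281, 117 with an unadjusted p under 0.05) and 0 at 4 h (0%; lowest 0.131, 92 unadjusted), and 4 at 24 h (0.339%). Without saline 24 h, 11 passed at 1 h (0.931%), of which 8 were higher, and 8 passed at 4 h (0.677%), of which 7 were higher. At 24 h 7 then passed (0.593%), 5 higher and 2 lower. These counts without saline 24 h are given under quantile normalization alone.

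By the form of this fit, the differences at 1 h and 4 h are the same with and without saline 24 h for every probe, which is no check on them. Only the SE can change. For the probes named here at 1 h and 4 h it fell without that array (M105 at 1 h: from 0.30 to 0.11). Their passing at these times without saline 24 h therefore reflects a smaller scatter. In the version without saline 24 h, M105 and M188 were highest at 1 h. M105 was at 19.30, 19.01 and 18.33 with ovalbumin and at 17.67 to 18.26 on the other 8 arrays, and its difference at 1 h was 1.38 ± 0.11 (SE; limma adjusted p = 0.0384). On saline 24 h, M105 stood at 19.13. M188 differed by 1.35 ± 0.13 (limma adjusted p = 0.0384). The lower probes at 1 h were M779 (-1.80 ± 0.23), V128 (-1.58 ± 0.20) and M76 (-1.36 ± 0.14), with a highest limma adjusted p of 0.047. M76 is outside the limit of 2 codes a direction here and is named because only 3 passed. At 4 h V336 was higher by 1.86 ± 0.13 (3.63-fold, limma adjusted p = 0.0198), M665 by 1.35 ± 0.15 (limma adjusted p = 0.0443), and M76 was the 1 lower probe, at -1.38 ± 0.14 (limma adjusted p = 0.0443). At 24 h the lower ones were M76 (-1.65 ± 0.15) and M369 (-1.59 ± 0.15), both with a limma adjusted p of 0.0164. With saline 24 h none of these probes passed: the limma adjusted p was 0.414 for M105 and M188, 0.432 for M779, 0.499 for V128 and 0.509 for M76 at 1 h, 0.198 for V336 and M665 and 0.654 for M76 at 4 h, and 0.776 for M76 and 0.47 for M369 at 24 h.

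The course of the ovalbumin arrays themselves needs no saline array and stays within lot 1, where time goes with the batch number (1, 2 and 3). Between 1 h and 4 h 0 probes were at least 2-fold apart (0% of 1153), the widest difference was 0.98, and the arrays correlated at 0.967. Ovalbumin 24 h had 9 probes at least 2-fold above ovalbumin 1 h and 1 below (0.868%), and 8 above and 1 below ovalbumin 4 h (0.781%). Median scaling turned these splits to 2 above and 6 below, and 2 above and 17 below, and gave 2 probes between 4 h and 1 h.

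The probes that stood higher at 24 h were led by M134. It read 15.77, 15.60 and 19.46 on the ovalbumin arrays of 1, 4 and 24 h and 15.54 to 15.86 on the other 9, so it was high on 1 array of 12. The deposited intensity was 184561 at 24 h, 5.17 times the array median, and on every other array it lay between 0.743 and 1.00 times the median. M134 ranked 7th of 1185 on ovalbumin 24 h and no higher than 584th elsewhere. Ovalbumin 24 h differed from the other treatments at 24 h by 3.75 ± 0.13 (SE; limma adjusted p = 0.000115).

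M722 read 15.79, 15.84 and 18.56 with ovalbumin and 15.54 to 15.87 elsewhere, and stood at 2.69 times the median on the deposited scale at 24 h. Its difference at 24 h was 2.89 ± 0.13 (limma adjusted p = 0.000268). The other 2 probes that passed, M84 and M773, fall outside the limit of 2 codes a direction and are named because only 4 passed. M84 was at 1.76 times the array median at 24 h and M773 at 1.37 times, and neither exceeded 0.982 times on any other array. The fitted difference was 2.14 ± 0.11 for M84 (limma adjusted p = 0.00032) and 1.61 ± 0.10 for M773 (limma adjusted p = 0.00101). Other 24 h arrays were at the floor or next to it for M722, M84 and M773, and for M134 substance P 24 h was next to it (15.56). The size of these differences therefore depends on the floor and the scaling, and no fold is given. Values raised to the same floor do not scatter, so the SE and the p-value can depend on the floor too. M773 lay at the floor on saline, substance P and LPS 24 h. Without saline 24 h the 4 differences were 3.76, 2.84, 2.16 and 1.61, with a highest limma adjusted p of 0.00818.

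All 4 passed in each of 11 fits that left out 1 other array or an earlier ovalbumin array. Leaving out ovalbumin 1 h or 4 h could not alter the 24 h differences, because each ovalbumin array has its own term. The fits without those arrays are therefore no check. Leaving out a saline, substance P or LPS array of 1 h or 4 h could alter the SE and the p-value but not the 24 h differences. Only the fits without saline, substance P or LPS 24 h could move these differences. Each of the 4 differences rests on the ovalbumin 24 h array alone, and no second array of that time checks it. Under median scaling M134 (2.48) and M722 (1.56) passed, and M84 (1.00) and M773 (0.65) did not. Without scaling M134 (1.98) passed, and M722 (1.03), M84 (0.47) and M773 (0.13) did not.

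The number of probes lower at 24 h depended on the scaling: without scaling 13 were at least 2-fold below ovalbumin 1 h and 10 below ovalbumin 4 h. Against ovalbumin 1 h the lowest were M834 (19.46 at 1 h, 18.66 at 4 h and 18.26 at 24 h) and M105. Against ovalbumin 4 h they were M314 (18.91, 19.89 and 18.61) and M105. Against saline 24 h the lowest were M150 (15.63 against 16.86) and M314 (18.61 against 19.59). On the remaining arrays M150 stayed within 15.84 to 16.28, so here saline 24 h was the highest array and ovalbumin 24 h the lowest.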

How the data were processed

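The deposited table holds linear intensities of 1185 probes on 12 cDNA arrays. What the authors did before deposit (scanner, background step, scaling) is not given in the sources used here, and the ovalbumin 1 h column holds decimals where the others hold whole numbers. The members and lists were chosen with earlier results of these data known. Arrays were quantile-normalized (limma 3.58.1, R 4.3.3), raised to a floor (the 10th percentile) where lower, and put on the log2 scale. The 1181 probes that passed the floor in 3 or more arrays were tested with lmFit and eBayes, Benjamini-Hochberg adjustment and a threshold of 0.05. The average fits have 6 residual degrees of freedom (5 without saline 24 h) and the single-time fit 4 (3). An SE is limma's. The number of arrays limits the precision. Groups came from sample titles.

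The gene lists could not be tested, as no code could be named. For each comparison at most 2 codes a direction are given, those with the highest and lowest ratio above the floor on both sides (with the same sign at 1 h and 4 h for these times) or the largest difference past the threshold. The fits were tested on simulated data with independent normal noise, without a floor, a lot effect or an array that stands apart. That test cannot show how the fits behave with an array such as saline 24 h. Alternatives were median scaling, no scaling, normexp, another floor, no filter, no time factor, the mean of the saline arrays and leaving out each array.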

Additional observations from a re-analysis of the deposited data

Results flagged for a closer look

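The change from 1 h and 4 h to 24 h was compared between ovalbumin and the other 3 treatments, a contrast chosen after the data were seen. It differed for 4 of 1181 probes in limma (0.339%), all higher with ovalbumin, and 65 had an unadjusted p under 0.05. The differences were 3.66 ± 0.16 (SE) for M134, 2.82 ± 0.16 for M722, 2.14 ± 0.13 for M84 and 1.66 ± 0.13 for M773 on the log2 scale, with limma adjusted p-values of 0.000455, 0.00106, 0.00108 and 0.00282. Without saline 24 h the count was again 4, and it was 4 in each of 9 fits that left out 1 array other than those of ovalbumin. Each value rests on the single ovalbumin 24 h array, and the floor bears on these values and their SE as described above. Under median scaling 1 probe passed, M134 (2.28, limma adjusted p = 0.00572). After normexp correction 2 passed, and M134 (limma adjusted p = 0.0512) and M722 (0.0643) were not among them.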

How the results depend on the processing

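No paired analysis was possible because each treatment and time has 1 array and the labels give no replicate numbers. Time entered the average fits as a factor. With each array left out in turn, the number of probes past the limma threshold ran from 0 to 27 for ovalbumin against saline, from 5 to 45 for the same without saline 24 h, from 2 to 101 for ovalbumin against the other treatments averaged over times, from 0 to 11 at 1 h, from 0 to 8 at 4 h and from 4 to 7 at 24 h. The probes with all ovalbumin arrays outside the others numbered 133 without saline 24 h. Without any scaling the limma counts were 1177 for ovalbumin against saline, 1114 for the same without saline 24 h, 1176 against the other treatments, and 507, 1141 and 50 at 1, 4 and 24 h, of which 1 at 24 h was higher and all others lower. The 2-fold counts were then 508, 540 and 45 against saline at 1, 4 and 24 h and 595 against the earlier saline arrays, and 21 probes had all ovalbumin arrays outside the others, all of them below. Values that turned sign without scaling were M62 (-0.35) and M241 (-0.22) at 1 h, M318 (-0.23) and V336 (-0.20) at 4 h, M32 (-0.16) and M188 (-0.37) averaged without saline 24 h, and M665 (-0.35) and V336 (-0.40) against the other treatments. Median scaling gave 0 probes for ovalbumin against saline without saline 24 h and 0 against the other treatments, 2 at 24 h, 1 for the late change, 23 with all ovalbumin arrays outside, and 2-fold counts of 15 at 1 h, 48 for 24 h against the earlier saline arrays, 2 between ovalbumin 4 h and 1 h and 19 between 24 h and 4 h. The normexp correction gave 7 probes without saline 24 h and 2 for the late change, and 2-fold counts of 409, 326 and 346 at 1, 4 and 24 h, 386 against the earlier saline arrays, and 211, 307 and 281 for ovalbumin 4 h against 1 h, 24 h against 1 h and 24 h against 4 h. Against the other treatments 20 probes passed with the floor at the 25th percentile and 21 without the filter. Without the time factor 48 passed for ovalbumin against saline without saline 24 h. Against the mean of all 3 saline arrays the 2-fold counts were 6 at 1 h and 7 at 4 h. The causes of these changes were not tested.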
